A study of Homo sapiens with 6 samples.

Results

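Aminoacyl-tRNA synthetases, the enzymes that load each amino acid onto its tRNA, were examined in CFPAC-1 cells carrying guide RNAs against SULF2. The members were the genes that the deposited table annotates to the aminoacyl-tRNA biosynthesis pathway, leaving out transcripts of the mitochondrial genome and keeping those with at least 1 TPM in at least 2 of the 6 libraries. Of 59962 genes in the table, 67 carried the annotation and 44 were kept: 21 genes of cytosolic synthetases, 17 of mitochondrial synthetases, and 6 that act beside them. The 23 rows not kept were 18 pseudogenes with at most 0.3 TPM, 2 antisense RNAs, SMIM36 and 2 genes of unnamed proteins. One of these, AC011455.2, was listed at 20.4 TPM in LACZ replicate 2 and at no more than 0.16 TPM elsewhere, and it shares 1492 exon bases with SARS2 on the same strand. Symbols ending in 2 mark mitochondrial enzymes except TARSL2, a second cytosolic threonyl enzyme. GARS and KARS encode enzymes for both compartments and were counted as cytosolic.

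Each synthetase joins its amino acid to the matching tRNA at the cost of ATP. For most amino acids, human cells use separate nuclear genes for the cytosol and the mitochondrion. Uncharged tRNA activates the kinase GCN2, which phosphorylates eIF2 and raises translation of the transcription factor ATF4. ATF4 is known to activate genes of amino acid supply, and many cytosolic synthetase genes have been reported among its targets in other systems.

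The cells are a line from a human pancreatic ductal adenocarcinoma, and total RNA was sequenced in 3 groups of 2 libraries: SULF2 sgRNA1, SULF2 sgRNA3 and LACZ, a guide against a bacterial gene that served as control. The labels call all 3 groups knockdowns. How the guides act on their target, and whether replicate libraries stem from different cultures or clones, was not stated in the labels. SULF2, an extracellular sulfatase that removes sulfate groups from heparan sulfate, had 8.98 and 12.8 TPM with sgRNA1, 10.1 and 9.24 TPM with sgRNA3, and 25.7 and 22.5 TPM with LACZ. It fell with both guides, by a log2 change of -1.09 with sgRNA1 (adjusted p = 0.0338) and -1.23 with sgRNA3 (adjusted p = 0.0215; limma). Neither change passed without either LACZ library or either library of the guide compared, and that with sgRNA1 also not without either sgRNA3 library (adjusted p = 0.0544 to 0.172 with sgRNA1 and 0.1 to 0.117 with sgRNA3). Between 15563 and 15923 genes per library reached 1 TPM. Of 8 ductal epithelial markers, 7 were abundant, with sums of 8096 and 7918 TPM with sgRNA1, 8560 and 8511 TPM with sgRNA3, and 9097 and 8922 TPM with LACZ, while CFTR was at 0.07 to 0.38 TPM. The leukocyte markers summed to 2.52 to 9.08 TPM and the endothelial ones to 3.88 to 4.7 TPM. Of the fibroblast markers, COL1A1 was present at 57.4 and 55.5 TPM with sgRNA1, 39.0 and 35.1 TPM with sgRNA3, and 74.8 and 74.0 TPM with LACZ, and DCN, COL3A1, COL1A2 and LUM were at 0 to 2.1 TPM. COL1A1, KRT18, KRT19 and SOX9 fell with both guides (each call but that of COL1A1 with sgRNA3 was lost without at least 1 library), and their part in the results on the synthetases was not tested.

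Both guides lowered a set of cytosolic synthetases. With sgRNA1, 7 of the 44 members fell: CARS, YARS, GARS, AARS, SARS, TARS and IARS, all cytosolic (limma, adjusted p under 0.05, against 4.31% of all 16610 genes tested). None rose (limma; 3 at an unadjusted p under 0.05; 1.69% of all genes rose), or 1, PSTK, without sgRNA1 replicate 1. With sgRNA3, 7 fell: CARS, YARS, GARS, AARS and SARS again, the mitochondrial HARS2, and SEPSECS (5.25% of all genes), and 3 rose: the cytosolic WARS and KARS and the mitochondrial CARS2 (3.84% of all genes). The remaining 32 members passed in neither comparison. In bulk RNA, fewer cells expressing a gene and less RNA per cell cannot be told apart. The LACZ libraries enter both comparisons, so the 5 genes lowered with both guides are not independent observations. All sgRNA1 libraries lay below both LACZ libraries in 20 members (35.2% of all genes) and above them in 10 (19.8%); with sgRNA3 the counts were 19 below (34.3%) and 17 above (24.8%). The number of lowered members with sgRNA1 was 2 without LACZ replicate 1 and 3 without LACZ replicate 2 or either sgRNA1 library. With sgRNA3 it was 1 without LACZ replicate 1 or sgRNA3 replicate 1 and 0 without LACZ replicate 2 or sgRNA3 replicate 2 (limma; 10 at an unadjusted p under 0.05 in each). The number of raised members with sgRNA3 was 0 when each of these 4 libraries was left out in turn (limma; 7 to 8 at an unadjusted p under 0.05).

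**Figure D1:**
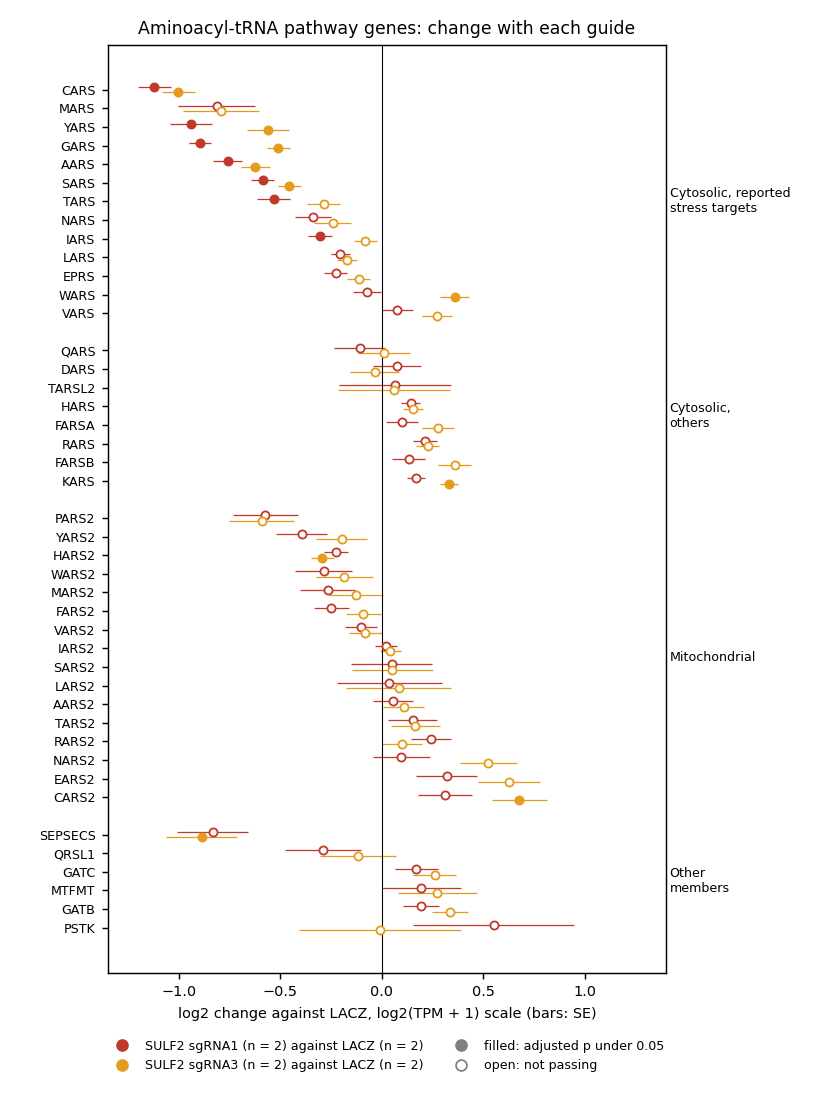
Log2 change of 43 of the 44 members with sgRNA1 and with sgRNA3 against LACZ (x axis, on the log2(TPM + 1) scale; bars are standard errors, filled points have an adjusted p under 0.05), grouped by compartment and by reported response to stress. The filled points below 0 lie mainly among the cytosolic enzymes reported as stress targets, with CARS lowest at -1.12 ± 0.08 with sgRNA1 and -1.003 ± 0.08 with sgRNA3.

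The lowered cytosolic synthetases all stood on a list of genes reported elsewhere as responding to ATF4 or to amino acid deprivation. Of the 21 cytosolic genes, 13 were on that list (AARS, CARS, EPRS, GARS, IARS, LARS, MARS, NARS, SARS, TARS, VARS, WARS and YARS), which was drawn up with results of these data known. Among these 13, 7 fell and 0 rose with sgRNA1 (limma; 11 lower and 0 higher at an unadjusted p under 0.05), and 5 fell and 1 rose with sgRNA3. Over all genes, 4.31% fell and 1.69% rose with sgRNA1, and 5.25% fell and 3.84% rose with sgRNA3. Their median log2 change was -0.53 with sgRNA1 and -0.29 with sgRNA3, beside -0.07 and -0.05 over all genes tested. Of the 8 other cytosolic genes, 0 fell with either guide (limma; 0 at an unadjusted p under 0.05), KARS alone rose with sgRNA3, and the medians were 0.12 with sgRNA1 and 0.19 with sgRNA3. A count of 0 lowered among 8 genes lies near the shares over all genes. The summed level of the 13 was 1343 and 1325 TPM with sgRNA1, 1536 and 1591 TPM with sgRNA3, and 1895 and 1815 TPM with LACZ. For the other 8 it was 651 and 602 TPM with sgRNA1, 667 and 664 TPM with sgRNA3, and 574 and 604 TPM with LACZ. The sum of the 13 was below both LACZ libraries with both guides, whereas that of the other 8 overlapped LACZ with sgRNA1 and was above it with sgRNA3.

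**Figure D2:**
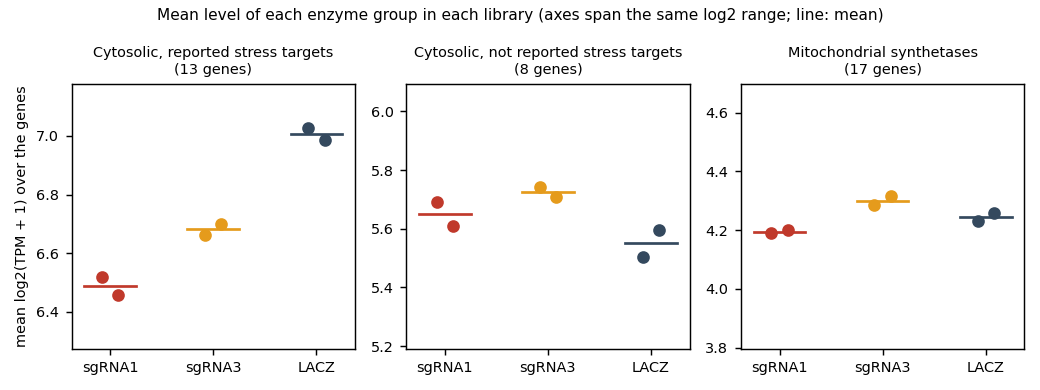
Mean log2(TPM + 1) of 3 enzyme groups in each library (points; lines are the means of 2 libraries), with y axes of the same log2 span. The 13 cytosolic enzymes reported as stress targets were lower in all 4 SULF2 guide libraries than in both LACZ libraries, while the means of the other groups lay closer together.

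CARS, which charges cysteine, showed the largest change of any synthetase. CARS (ENSG00000110619, chromosome 11, 3000922 to 3057613 in GRCh38, minus strand) had 33.1 and 29.3 TPM with sgRNA1, 34.4 and 33.3 TPM with sgRNA3, and 66.7 and 71.2 TPM with LACZ. All 4 libraries with a SULF2 guide were far below both LACZ libraries, without overlap. The group means were 31.2 ± 2.67 TPM with sgRNA1, 33.9 ± 0.799 TPM with sgRNA3 and 68.9 ± 3.25 TPM with LACZ (SD, n = 2 each), and the level fell to 0.452 and 0.491 times that in LACZ. The log2 changes were -1.12 ± 0.08 (SE, adjusted p = 0.00391) with sgRNA1 and -1.003 ± 0.08 (adjusted p = 0.00538) with sgRNA3 in limma. The change with sgRNA1 passed when any single library was left out, whereas that with sgRNA3 did not pass without LACZ replicate 2 (adjusted p = 0.0521) or sgRNA3 replicate 2 (adjusted p = 0.0516).

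GARS, the glycyl enzyme of both the cytosol and the mitochondrion (ENSG00000106105, chromosome 7, 30594681 to 30634033, plus strand), had 86.3 and 81.5 TPM with sgRNA1, 106 and 114 TPM with sgRNA3, and 155 and 159 TPM with LACZ. The 3 groups did not overlap, with sgRNA1 lowest and sgRNA3 between. Means were 83.9 ± 3.42 TPM with sgRNA1, 110.0 ± 5.12 TPM with sgRNA3 and 157 ± 2.33 TPM with LACZ (SD, n = 2 each). GARS fell by a log2 change of -0.90 ± 0.06 (adjusted p = 0.0025) with sgRNA1, which passed when any single library was left out, and of -0.51 ± 0.06 (adjusted p = 0.0112) with sgRNA3, which did not pass without either LACZ or either sgRNA3 library (adjusted p = 0.0569 to 0.0803; limma). GARS shares 99 exon bases with GARS-DT on the opposite strand, a transcript with 10.4 to 21.4 TPM in 5 libraries and 53.0 TPM in LACZ replicate 2.

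AARS, the alanyl enzyme (ENSG00000090861, chromosome 16, 70252295 to 70289543, minus strand), had 91.1 and 80.1 TPM with sgRNA1, 92.4 and 95.6 TPM with sgRNA3, and 143 and 148 TPM with LACZ. All 4 libraries with a SULF2 guide were below both LACZ libraries, and the SULF2 guides lay close together. It fell by a log2 change of -0.76 ± 0.07 (adjusted p = 0.00858) with sgRNA1 and -0.62 ± 0.07 (adjusted p = 0.013) with sgRNA3 in limma. The first did not pass without LACZ replicate 1 (adjusted p = 0.0755) or LACZ replicate 2 (adjusted p = 0.0764), and the second did not pass without either library of sgRNA3 or LACZ (adjusted p = 0.0763 to 0.0883).

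YARS, the tyrosyl enzyme (ENSG00000134684, chromosome 1, 32775237 to 32818153, minus strand), had 58.9 and 51.5 TPM with sgRNA1, 66.1 and 78.1 TPM with sgRNA3, and 106 and 107 TPM with LACZ. Both LACZ libraries were above every library with a SULF2 guide, and both sgRNA1 libraries were below both sgRNA3 libraries. The log2 change was -0.94 ± 0.10 (adjusted p = 0.0134) with sgRNA1 and -0.56 ± 0.10 (adjusted p = 0.0366) with sgRNA3 in limma. SARS, the seryl enzyme, whose product also goes into selenocysteine (ENSG00000031698, chromosome 1, 109213918 to 109238169, plus strand), had 96.7 and 92.9 TPM with sgRNA1, 99.6 and 108 TPM with sgRNA3, and 142 and 144 TPM with LACZ. Its LACZ libraries were nearly equal and above all 4 libraries with a SULF2 guide. SARS fell by a log2 change of -0.59 ± 0.06 (adjusted p = 0.00918) with sgRNA1 and -0.46 ± 0.06 (adjusted p = 0.0151) with sgRNA3. The sgRNA1 changes of YARS and SARS did not pass without either library of sgRNA1 or LACZ (adjusted p = 0.0502 to 0.0969 for YARS and 0.0516 to 0.0817 for SARS). Those with sgRNA3 did not pass without either library of sgRNA3 or LACZ, and for YARS also without either sgRNA1 library (adjusted p = 0.0575 to 0.152 for YARS and 0.0566 to 0.0945 for SARS).

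**Figure D3:**
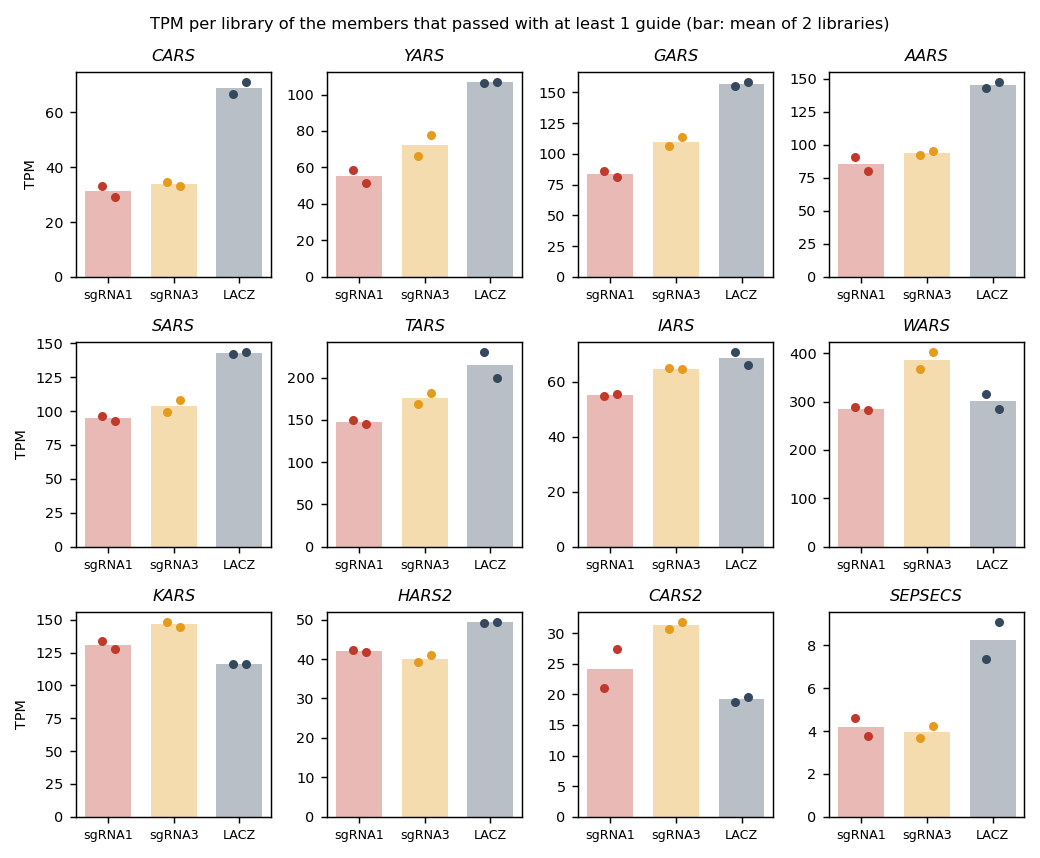
TPM in each library (points) and group mean (bars, n = 2) for the 12 members that passed with at least 1 guide, with sgRNA1 left, sgRNA3 in the middle and LACZ right. CARS, YARS, GARS, AARS and SARS were highest in both LACZ libraries, whereas WARS, KARS and CARS2 were highest in both sgRNA3 libraries.

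Among the passing members, YARS, CARS2, WARS and KARS share 396, 326, 287 and 176 exon bases with S100PBP, ING1, WDR25 and TERF2IP on the opposite strand. The part of reads from these bases was not tested.

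TARS and IARS, the threonyl and isoleucyl enzymes, passed with sgRNA1 and not with sgRNA3. TARS (ENSG00000113407, chromosome 5, 33440696 to 33469539, plus strand) had 150.3 and 145 TPM with sgRNA1, 169 and 182 TPM with sgRNA3, and 231 and 199 TPM with LACZ. The groups did not overlap, although the LACZ libraries lay further apart than those of either SULF2 guide. The log2 change of TARS was -0.53 ± 0.08 (adjusted p = 0.029) with sgRNA1 and -0.29 ± 0.08 (adjusted p = 0.0921) with sgRNA3. IARS, a subunit of the multisynthetase complex (ENSG00000196305, chromosome 9, 92210207 to 92293756, minus strand), had 55.0 and 55.7 TPM with sgRNA1, 65.0 and 64.6 TPM with sgRNA3, and 71.0 and 66.2 TPM with LACZ. All 3 groups were apart. Its log2 change was -0.30 ± 0.06 (adjusted p = 0.0452) with sgRNA1 and -0.08 ± 0.06 (adjusted p = 0.414) with sgRNA3. Between the guides, sgRNA3 minus sgRNA1 was 0.25 ± 0.08 for TARS (adjusted p = 0.263) and 0.22 ± 0.06 for IARS (adjusted p = 0.187), so neither gene was shown to differ between them in limma. With sgRNA1, IARS did not pass when any single library was left out (adjusted p = 0.101 to 0.179), and TARS passed only without LACZ replicate 2 (adjusted p without each of the others = 0.0693 to 0.139).

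MARS, the methionyl enzyme of the multisynthetase complex, varied between replicate libraries with both SULF2 guides. MARS had 127 and 184 TPM with sgRNA1, 171 and 141 TPM with sgRNA3, and 276 and 264 TPM with LACZ, with every SULF2 guide library below both LACZ libraries. Its log2 change of -0.81 ± 0.19 with sgRNA1 (adjusted p = 0.0724) and -0.79 ± 0.19 with sgRNA3 (adjusted p = 0.0633) did not pass in limma. MARS passed as lower with both guides when the filter was at least 5 TPM, and with sgRNA3 also in the fit of only the groups compared and without either sgRNA1 library. MARS shares 355 exon bases with DDIT3, a stress-induced transcription factor gene on the opposite strand that had 30.4 and 33.5 TPM with sgRNA1, 38.7 and 38.8 TPM with sgRNA3, and 105 and 110.1 TPM with LACZ. Without known strandedness, reads of the shared bases cannot be told apart, and the part of DDIT3 in the MARS values was not tested. NARS, LARS and EPRS, the asparaginyl, leucyl and glutamyl-prolyl enzymes, had log2 changes of -0.34 ± 0.09, -0.21 ± 0.05 and -0.23 ± 0.06 with sgRNA1 and -0.24 ± 0.09, -0.17 ± 0.05 and -0.11 ± 0.06 with sgRNA3, none of which passed. Their libraries with either SULF2 guide were all below both LACZ libraries, as in 35.2% of all genes with sgRNA1 and 34.3% with sgRNA3. VARS, the valyl enzyme, was the member of the 13 with the highest log2 change with sgRNA1, at 0.08 ± 0.08, and had 0.27 ± 0.08 with sgRNA3, neither passing.

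The promoter sequences of the cytosolic genes were searched for the CARE, the C/EBP-ATF response element that ATF4 binds with a partner, because it bears on the division of the enzymes by reported response to ATF4 or amino acid deprivation. RefSeq promoter windows (GRCh38.p14, 250 bases before to 50 after the start) matched 34 of the 44 members by gene ID. Those not matched included AARS2, DARS, LARS, MTFMT, SEPSECS, TARSL2, VARS, VARS2 and YARS. The letters TGATGNAA were sought on both strands. They were found in 6 of 16 promoters of cytosolic synthetases and in 1 of 14 of the mitochondrial enzymes, beside 1270 of all 35116 promoters (3.62%). By reported response, they were in 6 of 10 promoters of the stress targets and in 0 of 6 of the other cytosolic enzymes. That list holds genes reported to respond to ATF4, which binds the CARE, or to amino acid deprivation. The split is therefore partly built in and is not a separate test. The 7 matches are given 5′ to 3′ on the gene's strand, with 20 bases on each side and the CARE in capitals (TTGCATCA is its reverse complement).
CARS, chr11:3057398-3057445, minus strand: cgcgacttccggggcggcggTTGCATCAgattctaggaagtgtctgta
AARS, chr16:70289666-70289713, minus strand: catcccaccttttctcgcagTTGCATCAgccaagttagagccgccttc
TARS, chr5:33440947-33440994, plus strand: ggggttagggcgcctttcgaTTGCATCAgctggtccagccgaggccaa
IARS, chr9:92293683-92293730, minus strand: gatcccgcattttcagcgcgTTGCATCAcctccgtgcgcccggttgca
MARS, chr12:57488044-57488091, plus strand: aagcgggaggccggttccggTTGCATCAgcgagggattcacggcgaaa
NARS, chr18:57621795-57621842, minus strand: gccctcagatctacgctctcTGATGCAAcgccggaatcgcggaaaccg
YARS2, chr12:32756067-32756114, minus strand: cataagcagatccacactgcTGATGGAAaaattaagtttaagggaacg
Counting the start as 0, the first base of the match lay at -2 in CARS, 2 in TARS, -4 in MARS, -13 in IARS and 14 in NARS, whereas it lay at -187 in AARS and -197 in YARS2. All 6 cytosolic matches carried the same 8 letters, TGATGCAA or its reverse complement, and the mitochondrial YARS2 carried TGATGGAA. Of these 7 genes, CARS and AARS fell with both guides, TARS and IARS with sgRNA1, and MARS, NARS and YARS2 passed in neither comparison. GARS and SARS fell with both guides and held no such letters in this window, nor did WARS or EPRS. A match of letters is a description and does not show that a factor binds there. The E-box CACGTG was in 4 of 34 members (EARS2, CARS2, MARS2 and IARS; 7.26% of all promoters), the interferon-related letters TTCNNNGAA in 4 (CARS, TARS, WARS2 and PARS2; 7.66%) and GAAANNGAA in 3 (EARS2, GARS and IARS; 8.11%), and none of these overlapped a CARE.

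**Figure D4:**
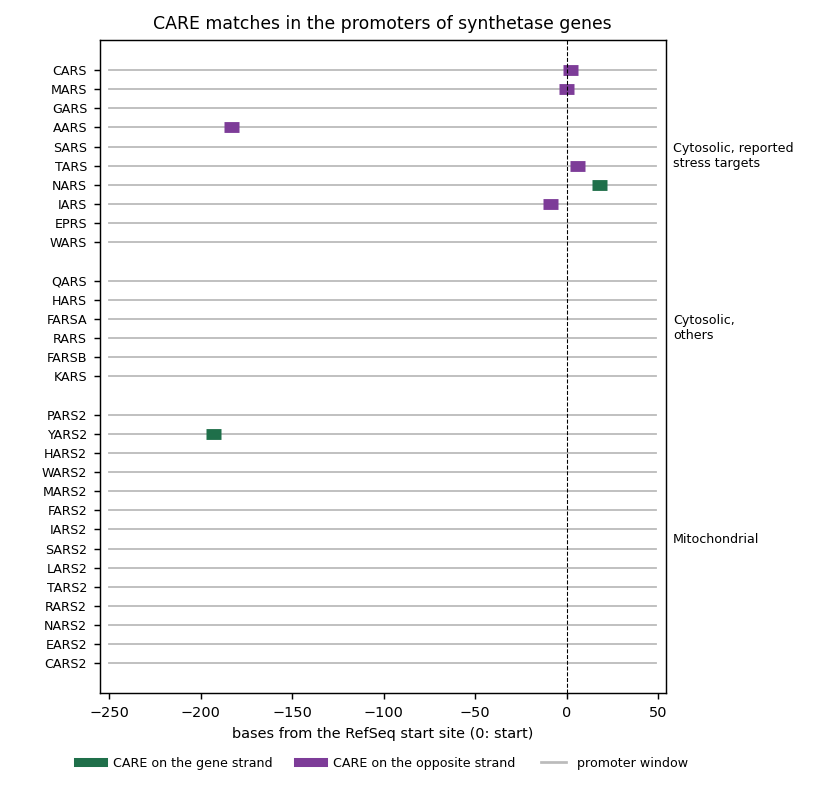
Position of CARE matches (coloured blocks) in RefSeq promoter windows of 30 synthetase genes (grey lines), with the distance from the start site in bases on the x axis. The matches in CARS, MARS, TARS, NARS and IARS lie at the start site, those in AARS and YARS2 near the distal end of the window.

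KARS, the lysyl enzyme of both compartments and a subunit of the multisynthetase complex, rose with sgRNA3. KARS (ENSG00000065427, chromosome 16, 75627474 to 75648643, minus strand) had 134 and 128 TPM with sgRNA1, 149 and 145 TPM with sgRNA3, and 116 and 116 TPM with LACZ. All 3 groups were apart, with sgRNA3 highest and LACZ lowest. The log2 change was 0.33 ± 0.05 (adjusted p = 0.018) with sgRNA3, which did not pass without either library of sgRNA3 or LACZ (adjusted p = 0.0874 to 0.109), and 0.17 ± 0.05 (adjusted p = 0.0973) with sgRNA1. Among the other 7 cytosolic genes not reported as stress targets, RARS, FARSA, FARSB, HARS, QARS, DARS and TARSL2, log2 changes lay between -0.11 and 0.21 with sgRNA1 and between -0.04 and 0.36 with sgRNA3, and none passed. FARSA and FARSB, the catalytic and the other subunit of the phenylalanyl enzyme, had log2 changes of 0.28 ± 0.08 (adjusted p = 0.0904) and 0.36 ± 0.08 (adjusted p = 0.0551) with sgRNA3. FARSB passed as higher with sgRNA3 with a filter of at least 5 TPM, under median-of-ratios scaling and under quantile normalization. TARSL2 was the scarcest cytosolic gene, at 1.01 TPM averaged over the libraries.

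WARS, the tryptophanyl enzyme and the most abundant synthetase transcript at a mean of 324 TPM, rose with sgRNA3. WARS (ENSG00000140105, chromosome 14, 100333788 to 100376805, minus strand) had 289 and 282 TPM with sgRNA1, 368 and 403 TPM with sgRNA3, and 316 and 285 TPM with LACZ. Both sgRNA3 libraries exceeded every other library, and those of sgRNA1 overlapped LACZ. The log2 change was 0.36 ± 0.07 (adjusted p = 0.0414) with sgRNA3 and -0.07 ± 0.07 (adjusted p = 0.582) with sgRNA1, and 0.43 ± 0.07 (adjusted p = 0.0955) for sgRNA3 against sgRNA1. The rise with sgRNA3 did not pass when any single library was left out (adjusted p = 0.0804 to 0.157). WARS is also known as a gene induced by interferon gamma. Of 8 listed interferon gamma response genes, 4 rose (TAP1, GBP1, CXCL10 and PSMB9) and 2 fell (IRF1 and GBP2) with sgRNA3, beside 3.84% and 5.25% of all genes. With sgRNA1, IRF1 fell and 0 rose (limma; 3 at an unadjusted p under 0.05), beside 4.31% and 1.69% of all genes. TAP1, a peptide transporter, had 61.1 and 61.9 TPM with sgRNA1, 79.8 and 82.1 TPM with sgRNA3, and 60.0 and 59.3 TPM with LACZ. GBP2 had 76.6 and 76.2 TPM with sgRNA1, 55.5 and 54.3 TPM with sgRNA3, and 75.2 and 74.45 TPM with LACZ. IRF1 had 74.4 and 66.6 TPM with sgRNA1, 71.2 and 83.8 TPM with sgRNA3, and 125 and 122 TPM with LACZ. Each of these 6 calls with sgRNA3 was lost without at least 1 library: TAP1, GBP2 and IRF1 without either library of sgRNA3 or LACZ, and GBP1, CXCL10 and PSMB9 without any 1 of the 6. The call of IRF1 with sgRNA1 was likewise lost without either library of sgRNA1 or LACZ. TAP1 was highest and GBP2 lowest in the sgRNA3 libraries, and IRF1 was below both LACZ libraries with both guides. The part of these genes in the WARS values was not tested.

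The mitochondrial synthetases were lower in summed level than the cytosolic ones. Their summed level was 391 and 388 TPM with sgRNA1, 415 and 420 TPM with sgRNA3, and 399 and 399.6 TPM with LACZ, whereas the cytosolic genes summed to 1994 and 1927 TPM with sgRNA1, 2202 and 2255 TPM with sgRNA3, and 2469 and 2419 TPM with LACZ. The cytosolic sum was 5.11 and 4.97 times the mitochondrial sum with sgRNA1, 5.31 and 5.37 times with sgRNA3, and 6.19 and 6.05 times with LACZ. The median log2 change of the mitochondrial genes was 0.02 with sgRNA1 and 0.05 with sgRNA3, beside -0.21 with sgRNA1 and -0.08 with sgRNA3 for the cytosolic genes. The mitochondrial mean log2(TPM + 1) was 4.19 and 4.20 with sgRNA1, 4.28 and 4.32 with sgRNA3, and 4.23 and 4.26 with LACZ. By this mean, sgRNA1 lay below both LACZ libraries and sgRNA3 above them. The mitochondrial medians turned below 0 with sgRNA1 without LACZ replicate 1 (-0.16), LACZ replicate 2 (-0.03) or sgRNA1 replicate 1 (-0.11), and with sgRNA3 without LACZ replicate 1 (-0.02). The cytosolic median with sgRNA3 was -0.13 without LACZ replicate 2 and -0.03 on median-of-ratios scaling. Mean levels ran between 3.71 TPM for PARS2, the prolyl enzyme, and 79.4 TPM for IARS2, the isoleucyl enzyme. With sgRNA1, 0 of the 17 passed in either direction (limma; 4 lower and 0 higher at an unadjusted p under 0.05), and with sgRNA3 1 fell and 1 rose. Over all genes 4.31% fell and 1.69% rose with sgRNA1, and 5.25% fell and 3.84% rose with sgRNA3, so these counts of 17 genes lay near the background. Log2 changes of the 17 ran between -0.58 ± 0.16 (PARS2) and 0.32 ± 0.15 (EARS2) with sgRNA1, and between -0.59 ± 0.16 (PARS2) and 0.68 ± 0.13 (CARS2) with sgRNA3.

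CARS2, the mitochondrial cysteinyl enzyme (ENSG00000134905, chromosome 13, 110641412 to 110713603, minus strand), had 21.0 and 27.4 TPM with sgRNA1, 30.7 and 31.9 TPM with sgRNA3, and 18.8 and 19.6 TPM with LACZ. Every library with a SULF2 guide was above both LACZ libraries, and both sgRNA3 libraries were above both sgRNA1 libraries. CARS2 rose with sgRNA3 to 1.63 times the level in LACZ (log2 change 0.68 ± 0.13, adjusted p = 0.0427) and had a log2 change of 0.31 ± 0.13 (adjusted p = 0.233) with sgRNA1. That sgRNA1 value was 0.50 without sgRNA1 replicate 1 and 0.13 without sgRNA1 replicate 2. The rise with sgRNA3 did not pass without either library of sgRNA3 or LACZ (adjusted p = 0.151 to 0.169). EARS2 and NARS2, the glutamyl and asparaginyl enzymes, had log2 changes with sgRNA3 of 0.63 ± 0.15 (adjusted p = 0.0655) and 0.53 ± 0.14 (adjusted p = 0.0807), with both sgRNA3 libraries above both LACZ libraries.

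HARS2 and HARS, the mitochondrial and cytosolic histidyl enzymes, start back to back on chromosome 5. Their RefSeq promoter windows share 184 bases, and the starts lie 85 bases apart. The shared stretch is shown on the plus strand, with the bases between the HARS start (minus strand) and the HARS2 start (plus strand), both included, in capitals.
HARS and HARS2, chr5:140691321-140691504, plus strand: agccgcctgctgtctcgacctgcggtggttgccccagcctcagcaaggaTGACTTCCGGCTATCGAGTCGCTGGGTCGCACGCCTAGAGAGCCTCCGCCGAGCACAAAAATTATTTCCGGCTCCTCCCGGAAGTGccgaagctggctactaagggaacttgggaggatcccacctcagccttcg
HARS2 (ENSG00000112855, chromosome 5, 140691426 to 140699318) had 42.3 and 41.8 TPM with sgRNA1, 39.3 and 40.9 TPM with sgRNA3, and 49.2 and 49.5 TPM with LACZ, and HARS had 87.8 and 88.4 TPM with sgRNA1, 88.7 and 89.0 TPM with sgRNA3, and 77.9 and 81.6 TPM with LACZ. Every library with a SULF2 guide was below both LACZ libraries for HARS2 and above both for HARS. HARS2 fell with sgRNA3 (log2 change -0.29 ± 0.06, adjusted p = 0.0419) and had -0.23 ± 0.06 (adjusted p = 0.0861) with sgRNA1, while HARS had 0.14 ± 0.05 (adjusted p = 0.15) with sgRNA1 and 0.15 ± 0.05 (adjusted p = 0.11) with sgRNA3. The fall of HARS2 did not pass when any single library was left out (adjusted p = 0.0695 to 0.167). The genes share 437 exon bases on opposite strands, and HARS2 shares 152 with ZMAT2 on the same strand, so their reads can be split between them.

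Cytosolic and mitochondrial enzymes for the same amino acid were set side by side in 19 pairs. The cytosolic log2 change was below the mitochondrial one in 12 pairs and above it in 7 with each guide. These pairs are not separate comparisons, since EPRS, TARS2 and FARS2 each stand in 2 of them, EPRS once below and once above. The ratio CARS over CARS2 moved furthest. On the log2(TPM + 1) scale it was 0.63 and 0.09 with sgRNA1, 0.16 and 0.06 with sgRNA3, and 1.77 and 1.81 with LACZ, and the cytosolic minus the mitochondrial log2 change was -1.43 with sgRNA1 and -1.68 with sgRNA3. All 4 libraries with a SULF2 guide had a lower ratio than both LACZ libraries. For alanine, AARS2 had 10.95 and 10.9 TPM with sgRNA1, 11.8 and 10.9 TPM with sgRNA3, and 10.4 and 10.6 TPM with LACZ, with log2 changes of 0.05 ± 0.10 with sgRNA1 and 0.11 ± 0.10 with sgRNA3 that did not pass, and the AARS minus AARS2 difference was -0.81 with sgRNA1 and -0.73 with sgRNA3. For serine, SARS2 had 28.6 and 22.3 TPM with sgRNA1, 24.5 and 26.1 TPM with sgRNA3, and 20.4 and 29.1 TPM with LACZ, with overlapping groups. For tyrosine, YARS2 had 21.5 and 18.3 TPM with sgRNA1, 22.2 and 23.7 TPM with sgRNA3, and 28.8 and 24.3 TPM with LACZ, and its log2 changes of -0.40 ± 0.12 with sgRNA1 and -0.20 ± 0.12 with sgRNA3 had the sign of those of YARS but did not pass. For threonine, TARS2 had 24.2 and 29.6 TPM with sgRNA1, 25.5 and 28.6 TPM with sgRNA3, and 24.5 and 23.5 TPM with LACZ. IARS2 was nearly level, at 80.9 and 77.9 TPM with sgRNA1, 82.7 and 78.6 TPM with sgRNA3, and 79.1 and 77.4 TPM with LACZ, beside the lower IARS with sgRNA1. WARS2, beside WARS, had 5.69 and 6.54 TPM with sgRNA1, 6.23 and 7.03 TPM with sgRNA3, and 8.08 and 7.26 TPM with LACZ. The difference was above 0 with both guides in 6 pairs. It was 0.37 with sgRNA1 and 0.45 with sgRNA3 for HARS over HARS2, and 0.35 with sgRNA1 and 0.48 with sgRNA3 for EPRS over PARS2. For FARSB and FARSA over FARS2, the mitochondrial phenylalanyl enzyme, it was 0.38 and 0.35 with sgRNA1 and 0.45 and 0.37 with sgRNA3. For WARS over WARS2 it was 0.21 with sgRNA1 and 0.54 with sgRNA3, and for VARS over VARS2 0.18 with sgRNA1 and 0.35 with sgRNA3. VARS2 shares 1858 of its 8448 exon bases with GTF2H4 on the same strand, so reads can be split between these genes.

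**Figure D5:**
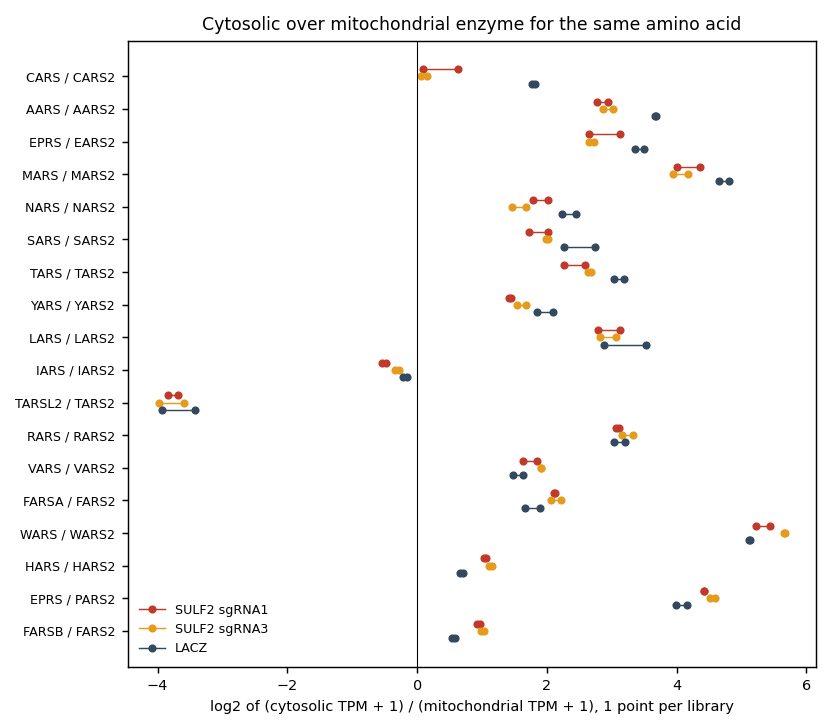
Log2 ratio of cytosolic to mitochondrial level for 18 of the 19 enzyme pairs in each library (points; lines join the 2 libraries of a group). For CARS over CARS2 the LACZ libraries were at 1.77 and 1.81 and the SULF2 guide libraries between 0.06 and 0.63, whereas for HARS over HARS2 the LACZ libraries were lowest.

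The cytosolic genes were also divided by the multisynthetase complex, which gathers several cytosolic synthetases on 3 scaffold proteins. Of 8 enzyme genes of the complex, 1 fell (IARS) and 0 rose with sgRNA1 (limma; 4 lower and 2 higher at an unadjusted p under 0.05), and 0 fell and 1 rose (KARS) with sgRNA3 (limma; 2 lower and 2 higher at an unadjusted p under 0.05). Of the 13 outside it, 6 fell and 0 rose with sgRNA1 (limma; 7 lower and 1 higher at an unadjusted p under 0.05), and 5 fell and 1 rose with sgRNA3. Over all genes, 4.31% fell and 1.69% rose with sgRNA1, and 5.25% fell and 3.84% rose with sgRNA3. Both sgRNA1 libraries lay below both LACZ libraries in 4 of the 8 and in 7 of the 13 (35.2% of all genes). Both sgRNA3 libraries did so in 5 of the 8 and in 7 of the 13 (34.3% of all genes). Whether genes inside and outside the complex differed was not tested. The median log2 change was -0.16 with sgRNA1 and -0.06 with sgRNA3 inside the complex, and -0.34 with sgRNA1 and -0.24 with sgRNA3 outside it. None of the scaffold genes AIMP1, AIMP2 and EEF1E1 passed, with log2 changes between -0.09 and 0.05 with sgRNA1 and between 0.15 and 0.42 with sgRNA3. By catalytic fold, 3 of 9 class I and 4 of 11 class II cytosolic genes fell with sgRNA1, and 2 of 9 and 3 of 11 with sgRNA3.

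Of the members that are not synthetases, PSTK and SEPSECS act one after the other to turn seryl-tRNA into selenocysteinyl-tRNA. SEPSECS (ENSG00000109618, chromosome 4, 25120014 to 25160442, minus strand) had 4.59 and 3.76 TPM with sgRNA1, 3.70 and 4.25 TPM with sgRNA3, and 7.37 and 9.11 TPM with LACZ. All 4 libraries with a SULF2 guide were below both LACZ libraries. It fell with sgRNA3 (log2 change -0.89 ± 0.18, adjusted p = 0.0433) and had -0.83 ± 0.18 (adjusted p = 0.0594) with sgRNA1. The fall did not pass when any single library was left out (adjusted p = 0.0691 to 0.168). PSTK had 9.15 and 23.4 TPM with sgRNA1, 9.67 and 9.65 TPM with sgRNA3, and 10.0 and 9.45 TPM with LACZ; sgRNA1 replicate 2 stood alone, and the other 5 libraries lay between 9.15 and 10.0 TPM. GATB, GATC and QRSL1, the subunits of the mitochondrial amidotransferase that makes glutaminyl-tRNA, and MTFMT, which formylates the mitochondrial initiator tRNA, had log2 changes between -0.29 and 0.20 with sgRNA1 and between -0.12 and 0.34 with sgRNA3, and none passed. The selenocysteine factors EEFSEC, SEPHS2 and SECISBP2 did not pass with either guide (limma; the smallest adjusted p was 0.287, for EEFSEC with sgRNA3).

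Listed partners upstream and downstream of charging were read from the same comparisons. Of 11 genes of uncharged tRNA sensing, eIF2 signalling and their downstream response, 5 fell with each guide (ATF4, DDIT3, TRIB3, PPP1R15A and ASNS). None rose with sgRNA1 (limma; 0 at an unadjusted p under 0.05), and GCN1 and EIF2AK2 rose with sgRNA3. The shares over all genes, also for the lists below, were 4.31% lower and 1.69% higher with sgRNA1, and 5.25% and 3.84% with sgRNA3. ATF4 had 249.8 and 247 TPM with sgRNA1, 264 and 253 TPM with sgRNA3, and 483 and 486 TPM with LACZ, without overlap between either SULF2 guide and LACZ (log2 change -0.96 ± 0.04, adjusted p = 7.2e-04 with sgRNA1, and -0.90 ± 0.04, adjusted p = 0.00116 with sgRNA3). These 5 genes passed against LACZ with each guide when any single library was left out. TRIB3, a pseudokinase gene that ATF4 is known to induce, had 41.6 and 42.3 TPM with sgRNA1, 71.8 and 68.3 TPM with sgRNA3, and 148 and 153 TPM with LACZ. All 3 groups were apart, and TRIB3 also differed between sgRNA3 and sgRNA1 (log2 difference 0.72 ± 0.05, adjusted p = 0.0174), though not when any single library was left out (adjusted p = 0.077 to 0.107). The eIF2 kinases EIF2AK1, EIF2AK3 and EIF2AK4, the last encoding GCN2, did not pass. XPOT, the exporter that carries tRNA out of the nucleus, had 43.8 and 41.1 TPM with sgRNA1, 53.6 and 54.3 TPM with sgRNA3, and 71.1 and 65.7 TPM with LACZ. It fell with sgRNA1 (log2 change -0.67 ± 0.07, adjusted p = 0.00997) and sgRNA3 (-0.34 ± 0.07, adjusted p = 0.0441), the only one of 6 genes of tRNA export, maturation and proofreading to pass. With sgRNA1, XPOT did not pass without either LACZ library or sgRNA1 replicate 2 (adjusted p = 0.0502 to 0.0755), and with sgRNA3 it did not pass when any single library was left out (0.0671 to 0.168). Of 5 elongation factor genes that bring charged tRNA to the ribosome, EEF1A2 alone passed, lower at -0.32 ± 0.04 with sgRNA1 (adjusted p = 0.0217) and -0.44 ± 0.04 with sgRNA3 (adjusted p = 0.00903). Of 8 mitochondrial translation factors, 0 passed with sgRNA1 (limma; 1 at an unadjusted p under 0.05) and GFM1, an elongation factor, rose with sgRNA3 (log2 change 0.57 ± 0.08, adjusted p = 0.018). Without either library of sgRNA3 or LACZ, neither GFM1 with sgRNA3 (adjusted p = 0.0529 to 0.104), nor EEF1A2 with sgRNA3 (0.0555 to 0.0674), nor GCN1 with sgRNA3 (0.0772 to 0.0869) passed. EEF1A2 with sgRNA1 did not pass when any single library was left out (0.0587 to 0.117), and EIF2AK2 passed only without LACZ replicate 1 (0.0661 to 0.133 without each of the others).

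Whether the guides differed was tested directly. No member passed between sgRNA3 and sgRNA1 (limma; 0 lower and 10 higher at an unadjusted p under 0.05; 0.187% of all genes were lower and 0.391% higher). The log2 difference was above 0 in 37 of 44 members, beside 56.9% of all genes, with a median of 0.12 against 0.04 over all genes. Both sgRNA3 libraries lay above both sgRNA1 libraries in 22 members (28.2% of all genes) and below them in 2 (18.8%). Of the 21 cytosolic genes, 14 had both sgRNA3 libraries above both sgRNA1 libraries, and all 13 reported stress targets had a difference above 0. The largest differences above 0 were 0.43 ± 0.07 for WARS (adjusted p = 0.0955), 0.43 ± 0.14 for NARS2 (adjusted p = 0.261), 0.39 ± 0.06 for GARS (adjusted p = 0.0816) and 0.38 ± 0.10 for YARS (adjusted p = 0.205). The lowest was -0.56 ± 0.40 for PSTK (adjusted p = 0.565), whose sgRNA1 libraries differed widely.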

How the data were processed

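RNA-seq libraries of CFPAC-1 cells were compared in 3 groups of 2. The values are TPM, deposited by the authors as a single table of 59962 genes. Per the submitters' processing notes, the tools were HISAT2 (2.1.0), RSEM (1.3.1) and DESeq2 (1.24.0), and the build was GRCh38. Their roles, the annotation release and strandedness are not given in the sources used. TPM keeps no depth, so no counting interval is given. Columns were assigned to guides by the guide number in their names (H1 to S1, H3 to S3), and 3 columns of group means were not used.

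Genes with at least 1 TPM in at least 2 libraries (16610) were analysed as log2(TPM + 1), on which low genes' changes are understated, in a single limma 3.58.1 fit of all 3 groups with a variance trend (R 4.3.3, package data.table, version 1.17.8; 3 residual and 2.34 prior degrees of freedom). Adjusted p-values are two-sided, by Benjamini-Hochberg over all genes tested, with a threshold of 0.05, and the fit was tested on simulated data. They measure only the spread between libraries, which may be technical. DESeq2 was not run, since TPM values are not counts.

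The members and lists were chosen with earlier results of these data known, and no test of a list was made. Library values were named for members passing in a comparison and for their partner in the other compartment, for the extremes of level, and for up to 3 partner genes per list. MARS, PSTK and the members with larger unpassed changes were added after their values were seen. Gene coordinates come from GENCODE 29 (44 of 44 members) and promoters from RefSeq. Values of some genes are not reported here. Alternatives were other pseudocounts, filters and scalings, no trend, a replicate block, fits of only the groups compared, and each library left out.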

Additional observations from a re-analysis of the deposited data

How the results depend on the processing

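Only 2 libraries stand behind each group, and a group left with 1 library was assumed to vary like the others. CARS and GARS with sgRNA1 passed under all 16 alternatives. Lowered members with sgRNA1 numbered 7, but 3 without a variance trend and 2 to 5 with each library left out. Raised members with sgRNA1 numbered 0, but 1 (KARS) under median-of-ratios scaling and 1 under quantile normalization, and 0 to 1 (PSTK) with each library left out. Lowered members with sgRNA3 numbered 7, but 1 without a variance trend, 4 with a replicate block and 0 to 5 with each library left out. Raised members with sgRNA3 numbered 3, but 1 without a filter, 5 with at least 5 TPM, 5 under median-of-ratios scaling, 0 without a trend, 1 with the replicate block and 0 to 2 with each library left out. Deviations of same-numbered libraries from their group means, over all genes tested, correlated at -0.03 (sgRNA1 and sgRNA3), -0.02 (sgRNA1 and LACZ) and 0.01 (sgRNA3 and LACZ). No broad shift shared by replicate number was thus seen. These values cannot show whether libraries were prepared in pairs, nor exclude a shared effect on a few genes.

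Under median-of-ratios scaling, the median log2 changes with sgRNA1 were -0.12 (cytosolic), 0.10 (mitochondrial), -0.45 (reported stress targets) and 0.20 (other cytosolic), and those with sgRNA3 were -0.026, 0.11, -0.23 and 0.24 for the same sets. Under quantile normalization, the medians with sgRNA1 were -0.15 (cytosolic), 0.073 (mitochondrial) and 0.17 (other cytosolic), and the mitochondrial one with sgRNA3 was 0.095. Without GARS and KARS the stress targets' median with sgRNA1 was -0.44. With each library left out, medians with sgRNA1 ran between -0.26 and -0.17 (cytosolic), -0.16 and 0.020 (mitochondrial) and -0.58 and -0.43 (stress targets). Those with sgRNA3 ran between -0.13 and -0.076 (cytosolic), -0.020 and 0.068 (mitochondrial) and -0.39 and -0.19 (stress targets). The mitochondrial median thus changed sign, at -0.16, -0.034 and -0.11 with sgRNA1 and -0.020 with sgRNA3. WARS with sgRNA1 changed sign to 0.012 under median-of-ratios scaling and to 0.0042 without LACZ replicate 1. Beside the calls of MARS and FARSB given above, EARS2 rose with sgRNA3 with a filter of at least 5 TPM and VARS under median-of-ratios scaling. The cause of these shifts was not tested.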
